A study of Rattus norvegicus with 10 samples.

Results

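The response to cyclic hyperoxia, averaged over SD and F344 rats, was measured in whole retina at postnatal day 3. For every gene, the difference between hyperoxia and room air was taken within each strain, and the mean of both differences is called the average effect. All 10 RNA pools of the series entered it, 5 from hyperoxia and 5 from room air. SD (Sprague Dawley) and F344 (Fischer) are albino laboratory rats, and the study's design text describes F344 as the strain that resists oxygen-induced retinopathy, which models the retinopathy of premature infants, and SD as the susceptible one. The groups were SD in cyclic hyperoxia (2 pools), SD in room air (3 pools), F344 in cyclic hyperoxia (3 pools) and F344 in room air (2 pools). Litters of the exposed groups entered the chamber with their mothers no later than 12 hours after birth, and periods of 80% and 21% oxygen, 24 hours each, alternated until day 3. Controls of the same age breathed room air throughout. Whether the last hours before sampling were in high or normal oxygen is not given in the sources used here. A pool mixed RNA of 3 rats from 2 litters, so spread between single rats was not measured. Of 15 retinal marker genes 12 were measured, and 11 of these lay above the median of all probe sets in every pool, the exception being Ptf1a, a gene of newborn amacrine and horizontal cells.

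Cells sense oxygen through prolyl hydroxylases, which use oxygen to mark the alpha subunits of hypoxia-inducible factor (HIF) for destruction. When oxygen is scarce, HIF persists and switches on genes for glycolysis, lactate export, restraint of mitochondrial respiration, collagen modification and vessel growth. The newborn rat retina has few vessels and is normally short of oxygen, and this hypoxia guides its vessels outward from the optic nerve. Breathing extra oxygen relieves it, and in oxygen-induced retinopathy vessel growth first slows or reverses.

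With equal weight given to SD and F344, the exposure lowered 9 genes and raised 0 (limma, adjusted p under 0.05). They were Igfbp2, Slc16a3, Cox4i2, Pdk1, Loxl2, Etv5, Mif, Fam162a and Adra1b, with average effects between -1.47 and -0.58 on the log2 scale. The 9 are 0.0628% of the 14324 genes measured, against 0% called higher. At an unadjusted p under 0.05 there were 327 lower genes (2.28%) and 192 higher genes (1.34%). The median of all average effects was 0.008. In whole tissue, fewer cells of a type and less RNA per cell cannot be told apart.

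Short stretches of DNA with the letters ACGTG or GCGTG form the core of the site that HIF binds. The 250 bases upstream of the start of 6 of the genes that fell are shown because these genes fell in the same comparison, the average of both strains. Sequences and positions are from RefSeq on the build GRCr8, written 5′ to 3′ along the gene's strand, and capitals mark every ACGTG or GCGTG and their reverse complements CACGT and CACGC.
Igfbp2, chr9:81864561-81864810, + strand: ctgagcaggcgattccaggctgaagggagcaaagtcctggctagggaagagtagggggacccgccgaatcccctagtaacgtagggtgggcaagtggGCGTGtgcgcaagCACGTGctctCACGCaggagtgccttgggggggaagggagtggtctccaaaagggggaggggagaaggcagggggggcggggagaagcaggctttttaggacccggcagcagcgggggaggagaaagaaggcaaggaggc
Pdk1, chr3:77113264-77113513, + strand: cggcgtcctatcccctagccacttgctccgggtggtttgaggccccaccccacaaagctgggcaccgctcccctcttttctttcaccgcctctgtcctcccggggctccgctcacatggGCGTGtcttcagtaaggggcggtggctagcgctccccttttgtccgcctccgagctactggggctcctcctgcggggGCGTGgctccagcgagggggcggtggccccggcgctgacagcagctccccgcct
Fam162a, chr11:78186051-78186300, + strand: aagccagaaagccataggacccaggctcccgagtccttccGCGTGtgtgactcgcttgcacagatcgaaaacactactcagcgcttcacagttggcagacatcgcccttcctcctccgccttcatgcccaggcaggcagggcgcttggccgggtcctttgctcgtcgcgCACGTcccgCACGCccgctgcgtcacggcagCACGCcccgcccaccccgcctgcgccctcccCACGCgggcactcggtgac
Etv5, chr11:92113013-92113262, + strand: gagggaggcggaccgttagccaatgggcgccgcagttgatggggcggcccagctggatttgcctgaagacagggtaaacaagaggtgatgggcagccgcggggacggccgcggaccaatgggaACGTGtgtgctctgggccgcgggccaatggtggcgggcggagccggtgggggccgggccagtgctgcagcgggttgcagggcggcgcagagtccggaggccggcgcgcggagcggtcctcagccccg
Mif, chr20:12790107-12790356, + strand: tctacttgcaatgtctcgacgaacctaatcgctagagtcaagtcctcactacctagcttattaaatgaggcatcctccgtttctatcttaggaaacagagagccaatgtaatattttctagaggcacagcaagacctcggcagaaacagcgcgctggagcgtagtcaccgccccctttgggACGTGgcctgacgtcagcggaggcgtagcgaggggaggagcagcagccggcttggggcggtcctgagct
Slc16a3, chr10:106712078-106712327, + strand: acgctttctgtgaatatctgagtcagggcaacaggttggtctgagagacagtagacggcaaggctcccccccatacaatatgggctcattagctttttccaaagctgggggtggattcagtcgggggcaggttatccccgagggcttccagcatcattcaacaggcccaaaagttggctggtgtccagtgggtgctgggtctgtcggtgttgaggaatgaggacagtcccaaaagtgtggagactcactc
Igfbp2 held 4 matches, of which a pair overlapped as the palindrome CACGTG about 140 bases before the start. Fam162a held 5 matches, the nearest 19 bases before the start. Pdk1 held 2, and Etv5 and Mif held 1 each. Slc16a3 held 0 in this window, as did Adra1b on chr10. Such a core is common: it occurred in 47.8% of the 11806 measured genes with a window and in 36.7% of all 33469 windows in the table. It occurred in 5 of the 7 genes that fell and had a window (71.4%), in 34 of the 62 such genes that were lower without overlap in both strains (54.8%), and in 31 of 42 listed HIF targets (73.8%). A match describes letters, not binding.

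Igfbp2, which encodes a binding protein that limits the access of insulin-like growth factors to their receptor, had the smallest p. Its log2 values were 8.4, 8.5 and 8.6 in SD room air, 6.6 and 6.7 in SD hyperoxia, 8.2 and 8.2 in F344 room air, and 7.1, 7.4 and 7.5 in F344 hyperoxia. Every exposed pool lay below every room-air pool, by at least 0.7 within each strain. The average effect of Igfbp2 was -1.36 (SE 0.0898, 95% interval -1.55 to -1.16), a level 2.56-fold lower (adjusted p = 7.96e-05). Of 14 measured genes of the insulin-like growth factor axis, 9 lay below 0, Igfbp2 fell, 0 rose and the median was -0.06, against 46% of all genes below 0. The ligand gene Igf2 lay at -0.31 (SE 0.0971, adjusted p = 0.985).

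3 of the 9 genes act where glycolysis meets the mitochondrion. Slc16a3, the transporter that exports lactate from glycolytic cells, read 9.0, 9.2 and 8.9 in SD room air and 6.8 and 7.3 in SD hyperoxia. In F344 it read 8.6 and 8.5 in room air and 7.2, 8.2 and 7.4 in hyperoxia. No exposed pool reached a room-air pool of its strain, although F344 hyperoxia pool 2 was the highest of the exposed pools. The average effect of Slc16a3 was -1.47 (SE 0.172, 2.76-fold lower, adjusted p = 0.0116). Pdk1, a kinase that inhibits pyruvate dehydrogenase, read 9.6, 9.5 and 9.4 in SD room air, 8.2 and 8.3 in SD hyperoxia, 9.4 and 9.4 in F344 room air, and 8.6, 9.1 and 8.9 in F344 hyperoxia. Its average effect was -0.89 (SE 0.0971, 1.86-fold lower, adjusted p = 0.00888). Cox4i2, the isoform of a cytochrome oxidase subunit used in low oxygen, read 9.0, 9.3 and 9.4 in SD room air and 7.7 and 7.9 in SD hyperoxia. F344 values of Cox4i2 were 8.7 and 8.8 in room air and 8.1, 8.1 and 8.5 in hyperoxia. The average effect was -0.97 (SE 0.108, 1.97-fold lower, adjusted p = 0.00888), and the exposures did not overlap in either strain for Pdk1 or Cox4i2. Of 13 measured genes of the pyruvate and mitochondrial switch, these 2 fell, 0 rose and 10 lay below 0 (median -0.12). Among those that did not pass, the mitophagy receptor gene Bnip3 lay at -0.88 (SE 0.151, adjusted p = 0.0972) and its relative Bnip3l at -0.28 (SE 0.0746). A second probe set of Bnip3 gave -0.77 (SE 0.128, adjusted p = 0.0824).

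Fam162a, a mitochondrial protein gene induced by HIF, read 10.5, 10.4 and 10.5 in SD room air and 9.5 and 9.4 in SD hyperoxia. In F344 it read 10.3 and 10.1 in room air and 9.8, 9.8 and 10.1 in hyperoxia, so that an exposed F344 pool tied with a room-air pool. It was the only gene of the 9 whose exposures touched. Its average effect was -0.66 (SE 0.0859, 1.58-fold lower, adjusted p = 0.0242). Mif, a cytokine gene named for holding macrophages in place, read 10.3, 10.7 and 10.2 in SD room air, 9.5 and 9.4 in SD hyperoxia, 10.1 and 9.9 in F344 room air, and 9.6 in all 3 F344 hyperoxia pools. The average effect of Mif was -0.68 (SE 0.0995, 1.6-fold lower, adjusted p = 0.0446), the closest of the 9 to the threshold.

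Loxl2 and Etv5 passed in the average although neither passed in a single strain. Igfbp2, Slc16a3, Cox4i2, Pdk1, Fam162a and Mif passed in SD by limma (adjusted p from 1.23e-04 to 0.0495). None of these passed in F344, where adjusted p was 0.233 for Igfbp2 and 0.921 for each of the others. Loxl2, an enzyme gene whose product cross-links collagen in the extracellular matrix, read 6.7, 6.7 and 6.4 in SD room air and 5.7 and 5.8 in SD hyperoxia. F344 room air gave 6.6 and 6.4, and F344 hyperoxia gave 5.6, 6.0 and 5.4. All exposed pools were at or below 6.0 and all room-air pools at or above 6.4. The average effect was -0.84 (SE 0.116, 1.79-fold lower, adjusted p = 0.026), made up of -0.85 in SD (adjusted p = 0.22) and -0.83 in F344 (adjusted p = 0.715). Etv5, an ETS transcription factor gene switched on by fibroblast growth factor and ERK signalling, read 7.5, 7.6 and 7.8 in SD room air, 6.7 and 6.9 in SD hyperoxia, 7.5 and 7.3 in F344 room air, and 7.0, 6.9 and 6.7 in F344 hyperoxia. Its average effect was -0.68 (SE 0.0939, 1.61-fold lower, adjusted p = 0.026), from -0.83 in SD (adjusted p = 0.0743) and -0.53 in F344 (adjusted p = 0.921).

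Adra1b, the alpha-1B adrenergic receptor gene, met the threshold through F344. It read 6.0, 5.9 and 5.9 in SD room air and 5.8 and 5.8 in SD hyperoxia, against 6.5 and 6.7 in F344 room air and 5.5, 5.5 and 5.7 in F344 hyperoxia. The SD pools were separated by 0.1, which is the rounding step of the deposited values. The average effect was -0.58 (SE 0.0779, 1.5-fold lower, adjusted p = 0.026), from -0.13 in SD and -1.03 in F344. Of 7 measured adrenergic receptor genes 1 fell, and the median of the list was 0.01.

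**Figure D1:**
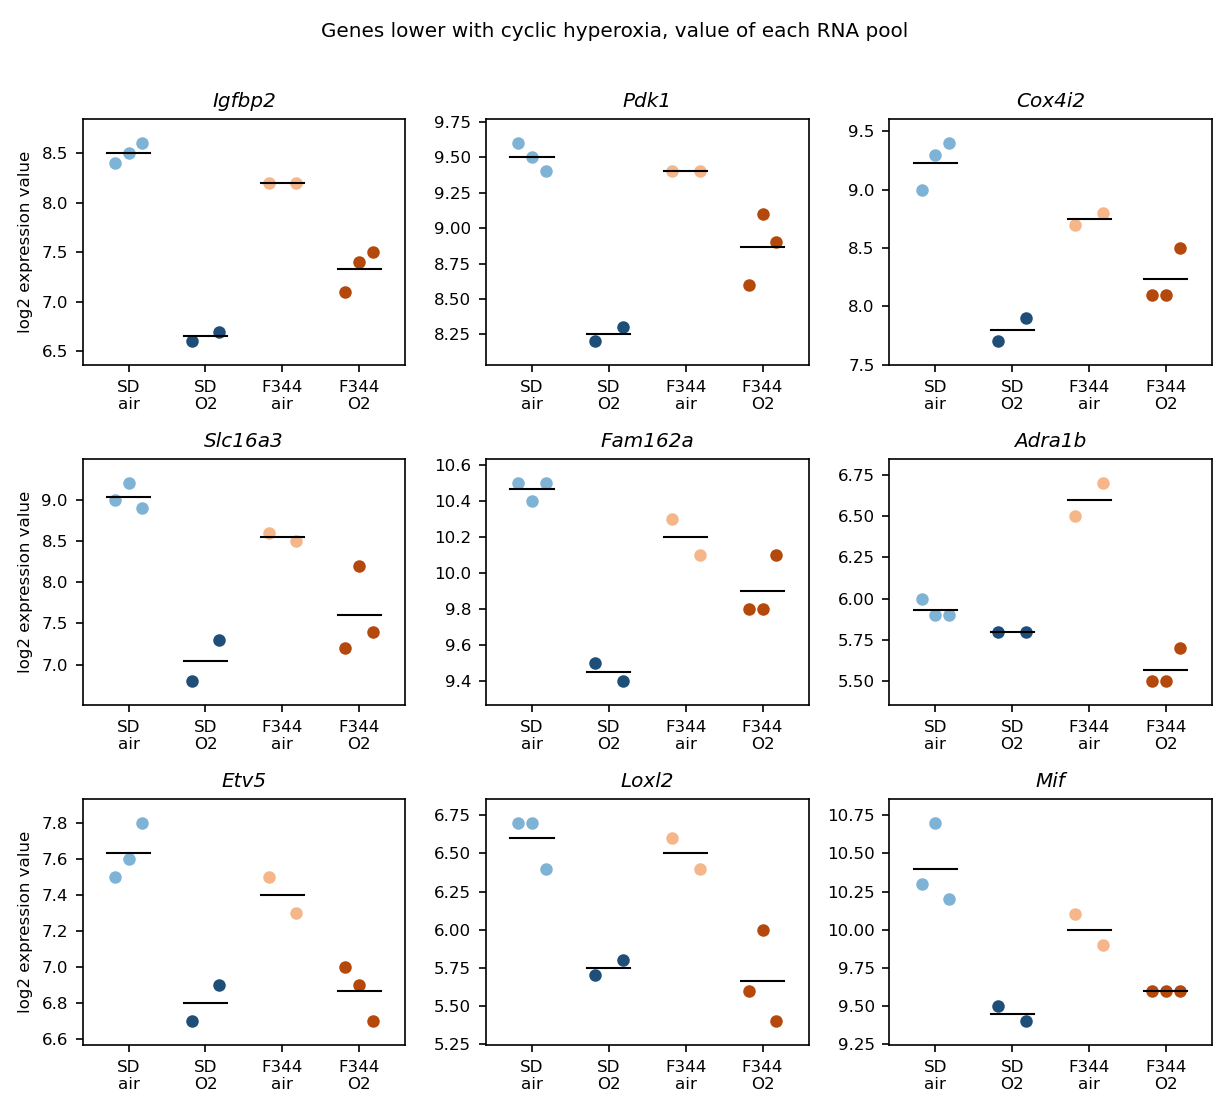
Log2 expression value of the 9 genes that fell, 1 point per RNA pool and a bar at each group mean; the vertical scale differs between panels and does not start at 0. Exposed pools lie below the room-air pools of their strain except for the tie of Fam162a at 10.1 in F344, and the SD groups of Adra1b are 0.1 apart.

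An exact permutation test over pools, with exposure reassigned within strain (100 arrangements, two-sided), gave 0.01, the smallest p it can give, for 8 of the 9 genes and 0.02 for Fam162a. Over all 14324 genes 82 (0.572%) were at 0.01 in either direction, and since the 9 were chosen on the same values the test adds no independent support. Igfbp2 passed without each of the 10 pools in turn. For the other genes the call was lost without some of the pools. Leaving out a pool of SD hyperoxia or F344 room air left 1 pool in that group, which by itself made the fit less precise. The count of genes that fell was 1 (Igfbp2) without room-air pool 1 or 2 of F344, exposed pool 1 or 2 of SD, or room-air pool 2 of SD. It was 2 without SD room-air pool 1 (Igfbp2 and Cox4i2), 4 without F344 hyperoxia pool 1, 10 without F344 hyperoxia pool 3, 11 without SD room-air pool 3 and 20 without F344 hyperoxia pool 2, and average effects of the 9 stayed between -1.62 and -0.53 in these fits. Loxl2, Etv5, Fam162a and Adra1b each passed in 3 of the 10, and Mif in 1. The pools numbered 3, of F344 hyperoxia and SD room air, deviated together from their group means (Pearson r 0.643 across probe sets). They are taken, from their number, to be the arrays that the design text says were added later. Without both of them 2 genes fell (Igfbp2 and Cox4i2), and with a term for these arrays 30 fell, all 9 included.

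How evenly the strains shared a fall was tested by the difference of their effects (SD minus F344), which is uncorrelated with the average in this design. Of the 9 genes, 8 fell more in SD. At an unadjusted p under 0.05 the strains differed for 7 of the 9, against 1000 of all 14324 genes (6.98%). None of the 9 passed after adjustment over all probe sets (limma, adjusted p from 0.651 to 0.977), and 0 of all genes did. The 9 were chosen by p-values that use the same residual variance, which also favours a small p for the difference. The arrays taken to be added later, of F344 hyperoxia and SD room air, deviated together and both enter the difference with a negative sign. Their part in these p-values and in the strain differences was not tested. The effect in SD exceeded that in F344 by -0.98 for Igfbp2 (95% interval -1.37 to -0.59), -1.03 for Slc16a3 (-1.78 to -0.29), -0.92 for Cox4i2 (-1.39 to -0.45) and -0.72 for Pdk1 (-1.14 to -0.29). Adra1b ran the other way, at 0.90 (0.56 to 1.24). Loxl2 differed by -0.02 (-0.52 to 0.49) and Etv5 by -0.30 (-0.71 to 0.11), intervals that include 0.

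**Figure D2:**
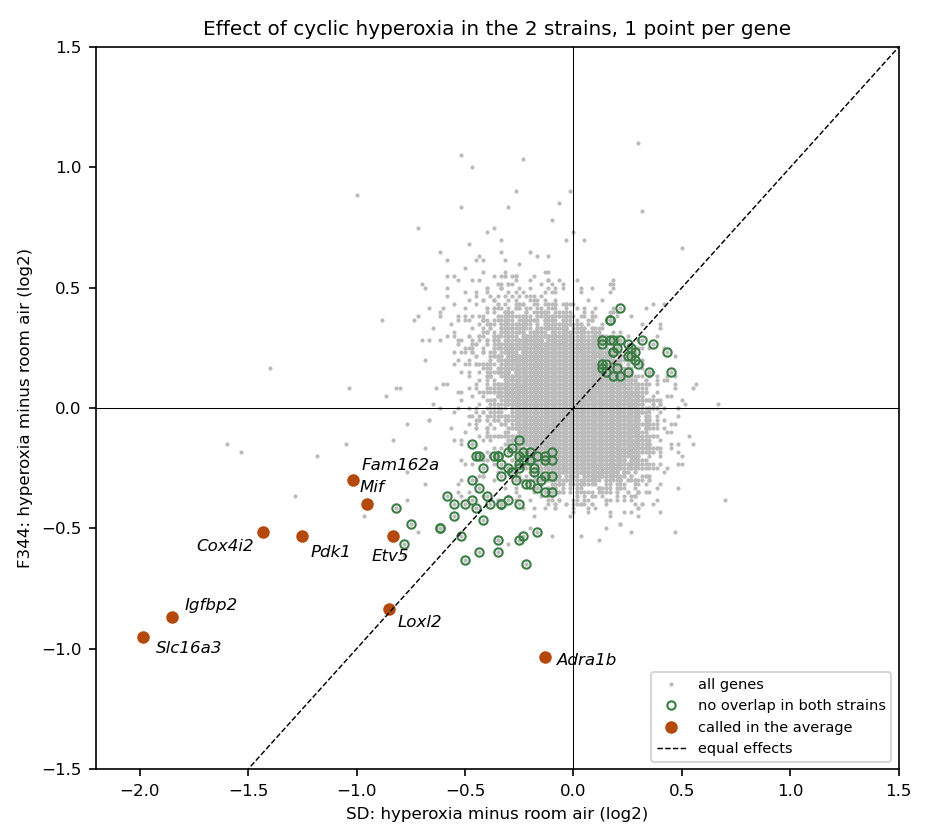
Effect of hyperoxia in SD (horizontal) against the effect in F344 (vertical), both in log2 units, with 1 point per gene, green circles for genes whose exposures did not overlap in either strain, and orange points for the 9 genes that fell. Slc16a3 and Igfbp2 lie farthest down and to the left, Loxl2 lies on the dashed line of equal effects and Adra1b lies near 0 in SD.

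Across all genes, movement in the same direction was not the rule. Both strains lay below 0 for 2597 genes (18.1%) and above 0 for 2696, while 7738 (54.0%) had effects of opposite sign and 1293 were at 0 in a strain. The pools numbered 3 enter the strains' effects with opposite sign, and with a term for them 50% of genes had opposite signs. Without both pools 37.3% had opposite signs, 34.1% the same sign and 4106 genes were at 0 in a strain. Set beside this, 36 of 50 HIF targets (72.0%), 17 of 22 glycolysis genes (77.3%), 16 of 21 endothelial genes (76.2%) and 9 of 10 growth factor feedback genes (90.0%) were lower in both strains. Without both pools numbered 3 these counts were 31, 17, 17 and 7, against 16.6% of all genes. These are the lists with the lowest medians of the average effect, and they were made with earlier results of these data known. A low average favours a fall in both strains, so the counts are not independent support for a shared fall.

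Under the strictest form of agreement, every exposed pool below every room-air pool in both strains, 78 genes were lower (0.545%) and, by the mirrored rule, 31 higher (0.216%). The lower genes included 8 of the 9 that fell, and 30 of the 78 were in a gene list. Their average effects ran from -1.47 to -0.14 (median -0.32), and 18 were at least 0.5 in size. The higher genes ran from 0.15 to 0.33 (median 0.23), 0 of them reached 0.5, and only Asns was in a list. With a gap of at least 0.2 required between the nearest pools, 27 lower genes and 1 higher gene were left. Values have 1 decimal, so a gap of 0.1 is a single rounding step. After repeated quantile normalization the counts were 149 and 75, after median centring 50 and 70, and without both pools numbered 3 they were 191 and 152. Lower genes thus outnumbered higher ones in each of these settings except median centring.

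Among the 15 genes next in order of p below 0 were 4 glycolytic enzymes, from a list that holds 22 of the 14324 genes. Counting HIF targets of any function, 7 of the 15 belonged to the HIF or glycolysis lists, and adjusted p of the 15 ran from 0.0624 to 0.224. Aldoa, the glycolytic aldolase, read 11.2, 11.4 and 11.2 in SD room air, 10.6 and 10.7 in SD hyperoxia, 11.3 and 11.3 in F344 room air, and 10.7, 11 and 10.7 in F344 hyperoxia. Its average effect was -0.56 (SE 0.0859, 1.47-fold, adjusted p = 0.0624), and SD and F344 differed by -0.12 (95% interval -0.49 to 0.26). Gpi, the isomerase of glucose 6-phosphate, lay at -0.56 (SE 0.0898, adjusted p = 0.0711), with a strain difference of -0.12 (-0.51 to 0.27). Pfkl, a subunit of the committing enzyme phosphofructokinase, lay at -0.68 (SE 0.111, adjusted p = 0.0711) and Tpi1, triose phosphate isomerase, at -0.62 (SE 0.105, adjusted p = 0.0906). Pygl, which releases glucose from glycogen, lay at -0.68 (SE 0.108, adjusted p = 0.0711). In all of these 5 genes every exposed pool was below the room-air pools of its strain, as in 0.545% of all genes. The 5 were picked by p on the same values, so this adds no independent support. When the fit held 1 probe set per gene, which lowers the number of tests, 16 genes passed: the 9 and Aldoa, Bnip3, Gpi, Pfkl, Pygl, Smoc1 and Tpi1.

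Several genes in this range belong to the matrix or to secreted signals rather than to metabolism. Smoc1, a secreted calcium-binding protein gene needed for eye development, read 7.6, 7.7 and 7.7 in SD room air, 7.2 in both SD hyperoxia pools, 8.0 and 8.1 in F344 room air, and 7.6, 7.7 and 7.7 in F344 hyperoxia. The strains started from different levels and moved by -0.47 and -0.38 (average -0.43, SE 0.0698, adjusted p = 0.0735). Acan, which encodes the proteoglycan aggrecan, lay at -0.44 (SE 0.0832, adjusted p = 0.173). Its values, 4.6 to 5.2, were below the array median (5.9 to 6.0) in every pool. The fibulin gene Fbln2 lay at -0.48 (SE 0.0846, adjusted p = 0.122). The fibronectin gene Fn1 lay at -0.43 (SE 0.0869, adjusted p = 0.224), with -0.22 in SD and -0.65 in F344. Gipr, the receptor gene of the incretin hormone GIP, lay at -0.52 (SE 0.0948, adjusted p = 0.132), with -0.52 in SD and -0.53 in F344, and Cbln4, a secreted synapse-organizing protein gene, at -0.45 (SE 0.0895, adjusted p = 0.224). Exposures did not overlap in either strain for these 6 genes, which were also picked by p on the same values. Of 13 measured fibroblast markers 9 lay below 0 (median -0.11), and their mean level ran from 5.82 to 6.13 in exposed pools and from 5.89 to 6.68 in room air, highest in SD room-air pool 3. The part of such tissue in the matrix genes was not tested.

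**Figure D3:**
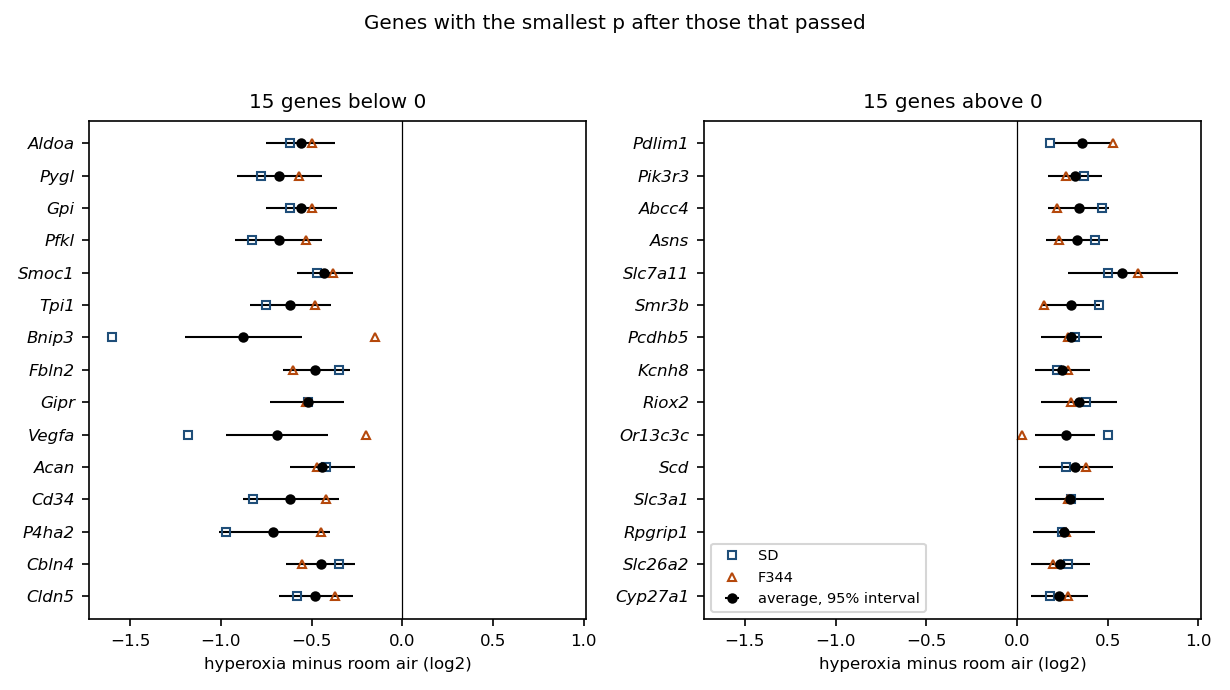
Average effect with its 95% interval (black) and the effects in SD (squares) and F344 (triangles), in log2 units, for the 15 genes below 0 and the 15 above 0 with the smallest p after the 9 that passed. Bnip3 and Vegfa combine a large SD effect with a small F344 effect, whereas Gipr and Acan have nearly equal effects.

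Of 50 measured HIF targets 43 lay below 0 (86.0%, against 46% of all genes), 6 fell, 0 rose and 44 did not pass. Of all 14324 genes 9 fell (0.0628%), the share to set beside the calls in this and every other list. The 6 were Slc16a3, Cox4i2, Pdk1, Loxl2, Mif and Fam162a, and the median of the list was -0.32. The list, like the others, was chosen with earlier results of these data known, and it shares members with the glycolysis list. List means per pool were 8.80, 8.88 and 8.69 in SD room air, 8.18 and 8.23 in SD hyperoxia, 8.67 and 8.67 in F344 room air, and 8.35, 8.73 and 8.41 in F344 hyperoxia. F344 hyperoxia pool 2 stood above both room-air pools of its strain and the other exposed pools stood below theirs. With all pools, 14 of the 50 were lower without overlap in both strains (28%, against 0.545% of all genes). Without that pool 25 were (50%, against 0.754%), and without any other single pool 14 to 18 were (against 0.768% to 1.07%). Vegfa, the main angiogenic factor of the retina, lay at -0.69 (SE 0.128, adjusted p = 0.154) and read 9.5 and 9.9 in F344 room air against 9.2, 9.9 and 9.4 in F344 hyperoxia. Egln3, an oxygen-sensing prolyl hydroxylase gene, lay at -0.86 (SE 0.183, adjusted p = 0.318), the hexokinase gene Hk2 at -0.83 (SE 0.247, adjusted p = 0.91) and P4ha1, a collagen prolyl hydroxylase gene, at -0.60 (SE 0.145, adjusted p = 0.522). In each of these 3 the highest exposed F344 value, at 7.2, 8.2 and 10, was that of pool 2 and lay above both F344 room-air pools. Egln3, P4ha1 and Vegfa were among the 20 genes that fell without it. Epo, the erythropoietin gene, lay at -0.04 (SE 0.0682) and Hmox1, heme oxygenase, at -0.33 (SE 0.0714, adjusted p = 0.367). Hmox1 read 4.7 to 5.3, below the array median (5.9 to 6.0) in every pool.

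Glycolysis was the list with the lowest median. Of 22 measured enzymes and transporters 20 lay below 0 (90.9%), Slc16a3 fell, 0 rose and the median was -0.36. Lower without overlap in both strains were 9 of the 22 (40.9%, against 0.545% of all genes). When any single pool was left out there were between 9 and 12, against 0.754% to 1.07% of all genes. List means were 9.81, 9.98 and 9.65 in SD room air, 9.28 and 9.34 in SD hyperoxia, 9.78 and 9.72 in F344 room air, and 9.34, 9.73 and 9.34 in F344 hyperoxia. The phosphoglycerate kinase gene Pgk1 lay at -0.57 (SE 0.14, adjusted p = 0.571), with -0.50 in SD and -0.63 in F344. Respiratory chain subunits, which carry out the opposite branch of energy metabolism, had a median of 0.04, with 23 of 34 above 0 (against 50.3% of all genes) and 0 that passed in either direction. The strain medians of this list had opposite signs, -0.16 in SD and 0.18 in F344. Its mean was highest in the pools numbered 3, at 9.37 in SD room air and 9.46 in F344 hyperoxia (other pools 8.95 to 9.28). These pools enter the strains' effects with opposite sign, and their part in the medians was not tested.

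Of 10 measured oxygen sensors and HIF subunits 0 passed and 8 lay below 0 (median -0.07), the highest being Hif1a, the HIF-1 alpha subunit, at 0.12 (SE 0.0718). Its endothelial relative Epas1 lay at -0.35 (SE 0.121). Collagen hydroxylases and cross-linking enzymes numbered 12, of which Loxl2 fell, 0 rose and 10 lay below 0 (median -0.12). P4ha2 lay at -0.71 (SE 0.14, adjusted p = 0.224) and Plod2, a lysyl hydroxylase gene, at -0.38 (SE 0.0995, adjusted p = 0.723).

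Genes that receptor tyrosine kinases switch on through ERK, and that feed back on it, had near-equal medians below 0 in both strains. Of 10 measured members 9 lay below 0 and 0 above, with medians of -0.23 in SD, -0.20 in F344 and -0.23 in the average, and Etv5 fell. List means were 7.10, 7.15 and 7.32 in SD room air and 6.83 and 6.96 in SD hyperoxia. In F344 they were 7.16 and 7.13 in room air and 6.91, 6.94 and 6.90 in hyperoxia. Every exposed pool was below every room-air pool, F344 hyperoxia pool 2 included. Dusp6, a phosphatase gene that switches ERK off, lay at -0.38 (SE 0.104, adjusted p = 0.735), Etv1 at -0.34 (SE 0.0859, adjusted p = 0.611) and the inhibitor gene Spry4 at -0.27 (SE 0.0829, adjusted p = 0.946). Lower without overlap in both strains were 3 of the 10 (30%, against 0.545% of all genes), Etv5, Dusp6 and Etv4.

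**Figure D4:**
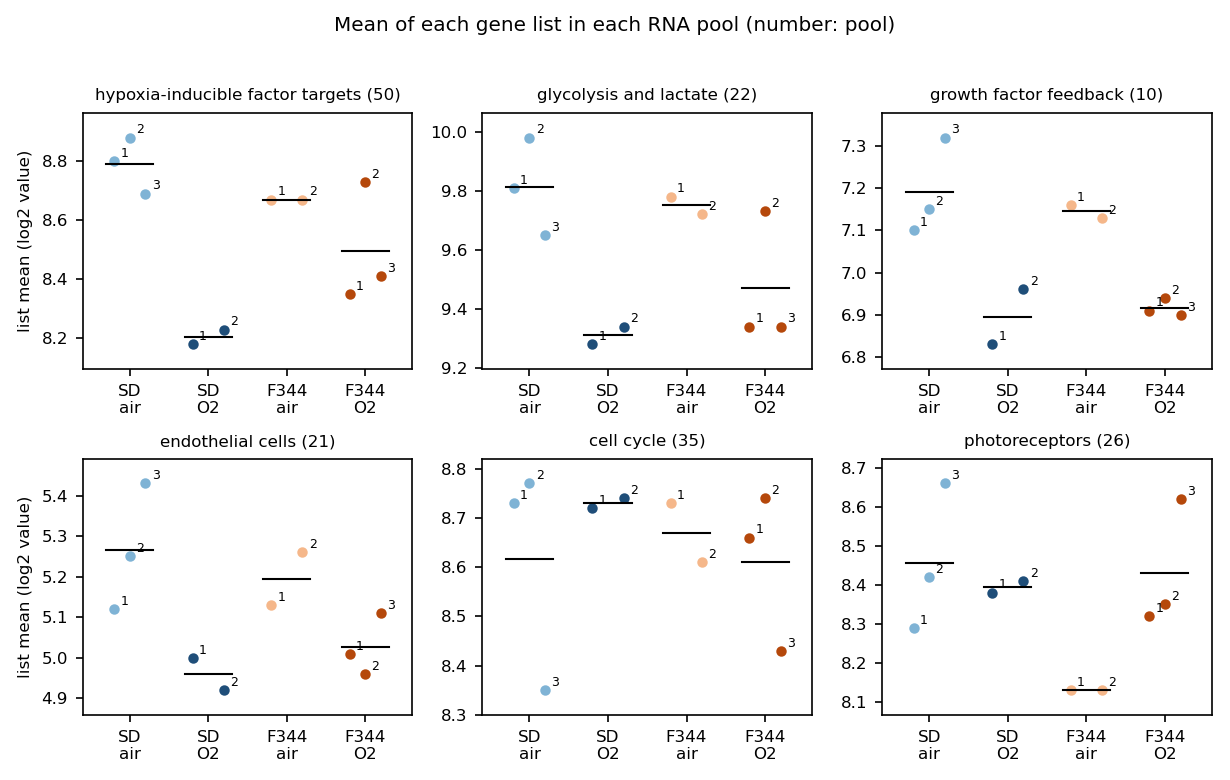
Mean log2 value of 6 gene lists in each RNA pool, numbered by pool, with a bar at the group mean; vertical scales differ and do not start at 0. For growth factor feedback and endothelial genes all exposed pools lie below all room-air pools, although the nearest endothelial means are 5.11 and 5.12. F344 hyperoxia pool 2 joins the room-air pools for HIF targets (8.73) and glycolysis (9.73). For cell cycle and photoreceptor genes the exposed pools do not all lie below the room-air pools.

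Vessel genes lay low in both strains without any passing. Of 21 measured endothelial markers 20 were below 0 (95.2%, against 46% of all genes), with a median of -0.23. List means ran from 4.92 to 5.11 in exposed pools and from 5.12 to 5.43 in room air. The highest mean of each exposure was that of a pool numbered 3, F344 hyperoxia (5.11) and SD room air (5.43). Cd34, a surface marker of endothelial cells, read 5.2, 5.6 and 5.9 in SD room air, 4.8 and 4.7 in SD hyperoxia, 5.3 and 5.6 in F344 room air, and 5.0, 5.0 and 5.1 in F344 hyperoxia. Its average effect was -0.62 (SE 0.121, adjusted p = 0.22). Cldn5, a tight junction gene of the blood-retina barrier, lay at -0.48 (SE 0.0948, adjusted p = 0.224), and Flt1, a receptor for vascular endothelial growth factor, at -0.39 (SE 0.113, adjusted p = 0.839). Neither overlapped in either strain. Of the 21 markers 17 were dimmer than the array median in every pool, and signal over background was not analysed here. Markers of tip cells, which lead new sprouts, were all below 0 (11 of 11, median -0.12), and 11 of 13 pericyte and smooth muscle markers were (median -0.17). Dimmer than the array median in every pool were 7 of the 11 tip cell markers and 9 of the 13 pericyte and smooth muscle markers. Rgs5, a pericyte gene, lay at -0.62 (SE 0.176, adjusted p = 0.804) and Cspg4 at -0.25 (SE 0.0726). Astrocytes, on which retinal vessels grow, had 9 of 11 markers below 0 (median -0.07). Pdgfra, a marker of their precursors, lay at -0.38 (SE 0.0863, adjusted p = 0.399), and Gfap, the astrocyte filament gene, at -0.03 (SE 0.105).

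**Figure D5:**
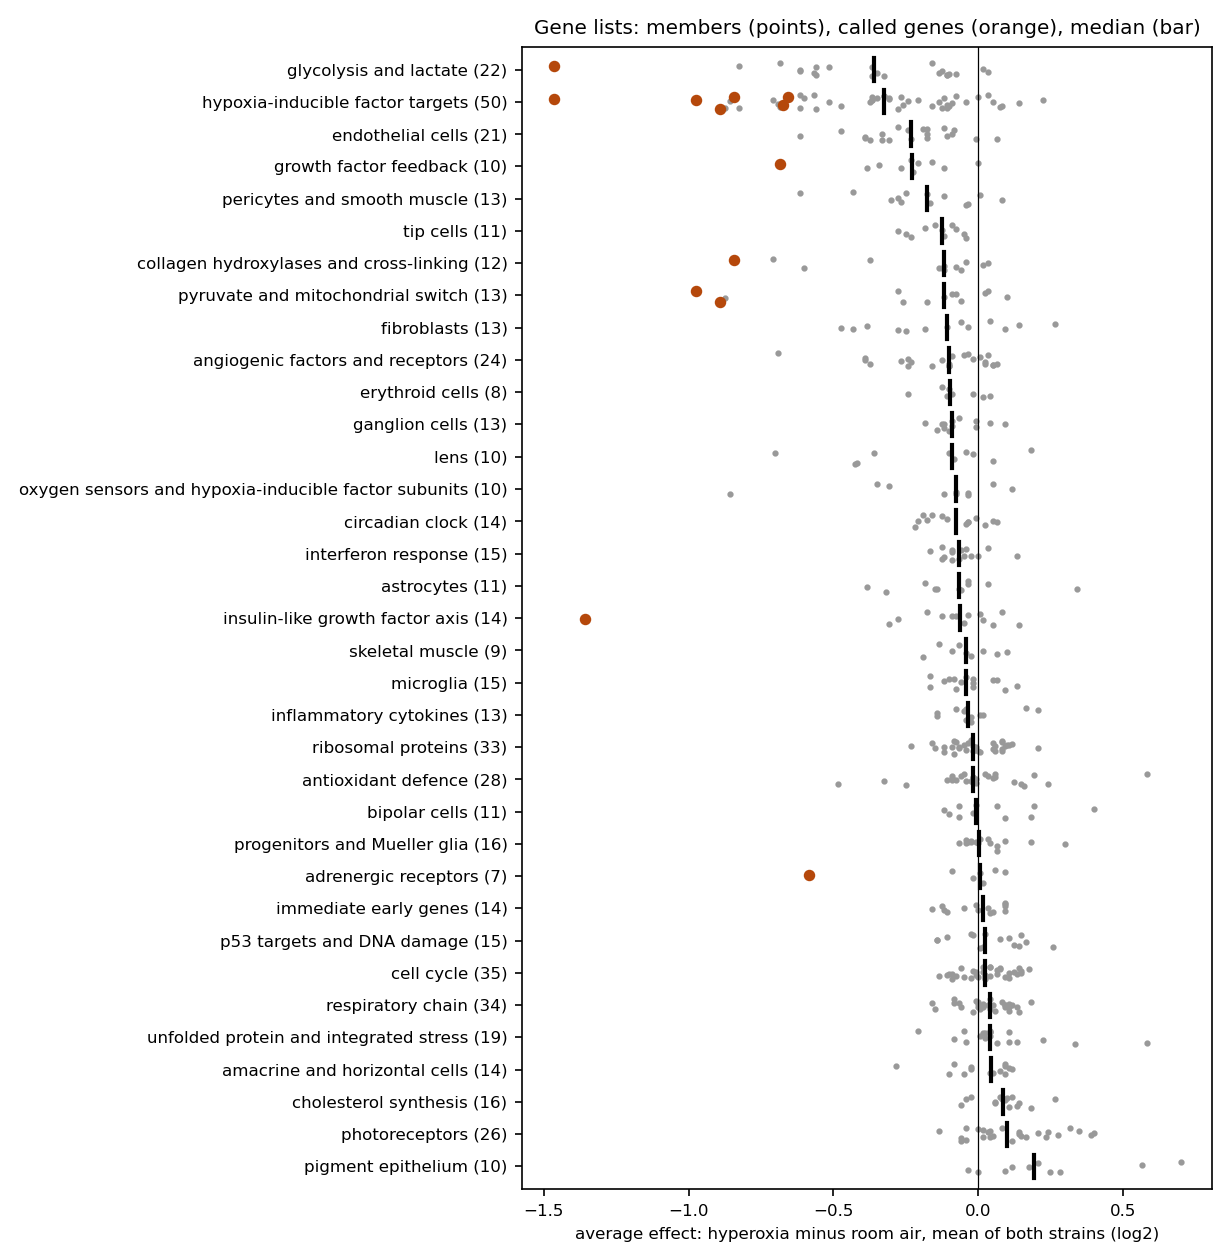
Average effect (log2) of every measured member of the 35 gene lists, ordered by list median (black bars), with the number measured in parentheses and the genes that fell in orange. Glycolysis (-0.36), HIF targets (-0.32), endothelial cells (-0.23) and growth factor feedback (-0.23) have the lowest medians, and pigment epithelium (0.19) and photoreceptors (0.10) the highest.

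Above 0 the effects were small. No gene passed, the smallest adjusted p was 0.289, and 3 genes (0.0209%) lay at 0.5 or higher against 31 (0.216%) at -0.5 or lower. Pdlim1, an adaptor protein gene of the cytoskeleton, lay at 0.36 (SE 0.0746, adjusted p = 0.289). Pik3r3, a regulatory subunit gene of phosphoinositide 3-kinase, read 10, 9.9 and 9.9 in SD room air, 10.3 and 10.3 in SD hyperoxia, 10 and 10 in F344 room air, and 10.3, 10.2 and 10.3 in F344 hyperoxia. It was the 1 higher gene with a gap of at least 0.2 in both strains, at 0.32 (SE 0.0686, 1.25-fold, adjusted p = 0.347). Asns, asparagine synthetase, a gene of the amino acid stress response, lay at 0.33 (SE 0.0779, adjusted p = 0.473). Slc7a11, the cystine importer that feeds glutathione synthesis, lay at 0.58 (SE 0.14, adjusted p = 0.522), with 7.1 and 6.5 in SD hyperoxia against 5.9, 6.4 and 6.6 in SD room air, and 6.7, 6.8 and 6.8 in F344 hyperoxia against 6.1 and 6.1 in F344 room air. Its SD pools overlapped. Abcc4, an exporter of organic anions, gave 0.34 and 0.36 from a pair of probe sets and -0.14 from the third. The rest of the 15 higher genes lay between 0.23 and 0.34, among them the photoreceptor cilium gene Rpgrip1 at 0.26 (SE 0.0776, adjusted p = 0.91) and the desaturase gene Scd at 0.32 (SE 0.0948, adjusted p = 0.856).

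Lists of protective responses had average medians near 0. Antioxidant defence had a median of -0.02 (17 of 28 below 0), the unfolded protein and integrated stress list 0.04 (15 of 19 above 0), and p53 targets 0.02 (10 of 15 above 0), each with 0 genes that passed. For 2 of these lists the strain medians had opposite signs. Antioxidant medians were -0.12 in SD and 0.13 in F344, and those of the unfolded protein and integrated stress list -0.08 and 0.13. The pools numbered 3 enter the strains' effects with opposite sign. Antioxidant list means were highest in them, at 7.99 in SD room air and 7.96 in F344 hyperoxia (other pools 7.64 to 7.85). Stress list means were 8.02 and 8.15 in the same pools (other pools 7.88 to 8.06). Photoreceptor genes lay at a median of 0.10 (20 of 26 above 0), composed of -0.03 in SD and 0.27 in F344. Their list means were also highest in the pools numbered 3, at 8.66 in SD room air and 8.62 in F344 hyperoxia (other pools 8.13 to 8.42). The part of the pools numbered 3 in these strain medians was not tested. Pigment epithelium genes had the highest median, 0.19 (8 of 10 above 0). The other 2 genes at 0.5 or higher belonged to it: the melanin enzyme genes Tyr, at 0.70 (SE 0.29), and Tyrp1, at 0.57 (SE 0.203). Pigment epithelium list means ran from 5.45 to 5.91 in exposed pools and from 5.26 to 5.76 in room air, and lens list means from 5.02 to 5.83 and from 4.94 to 6.15. The part of these neighbouring tissues in the results was not tested. Cell cycle genes had a median of 0.03 (22 of 35 above 0) and microglial genes of -0.04 (11 of 15 below 0). For 13973 of 14324 genes (97.5%) the 95% interval of the average effect lay within -0.5 to 0.5.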

How the data were processed

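Retinal RNA pools were labelled for Affymetrix whole-transcript arrays, per the labels' protocols, and the design text treats pools of different rats as biological replicates. The authors deposited log2 values per probe set, rounded to 1 decimal. Per the submitters' processing notes, the tools were Partek 6.4 and RMA, which combines the probes of a probe set; the scaling step is not given in the sources used here. Of 27342 probe sets, 15097 had 1 gene symbol, 323 several and 11922 none in the platform annotation. All entered the fit. Of a gene's probe sets the brightest on average stood for it (14324 genes). A further 2 probe sets that passed (each at -0.67) had several symbols or none and are not named.

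Tests used limma 3.58.1 in R 4.3.3: 1 mean per group (6 residual degrees of freedom), eBayes, two-sided, Benjamini-Hochberg over all probe sets, threshold 0.05. Each strain had equal weight in the average. The model was tested on simulated data. The number of arrays limits the precision; the median SE of an average effect was 0.0911. Promoter windows came from RefSeq (GRCr8), matched by gene ID. The comparison, the 35 gene lists (599 of 688 symbols measured) and the tests were chosen with earlier results of these data known. Named were all genes that passed, the 15 on either side of 0 with the smallest p after them, the 10 most separated each way, up to 4 members per list, and 8 fixed genes; Etv4 and Ptf1a were named after their values were seen. Alternatives covered filters, priors, normalization, weights, models, probe set choice and left-out pools.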

Additional observations from a re-analysis of the deposited data

How the results depend on the processing

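The count of genes that fell, 9 as reported, was 25 with array weights, 30 with a term for the pools numbered 3, 16 with 1 probe set per gene, 2 without both pools numbered 3, 2 in an additive model and 2 with no strain term. It was 1 to 20 when single pools were left out, and 6 to 11 with a brightness filter, without flat probe sets, with trend or robust priors, repeated quantile normalization or median centring. All 9 were among the calls with array weights and with the term. In every one of these settings 0 genes rose. With the replicate number as a block 26 genes fell, the 9 included, but the numbers do not pair the pools across all groups: deviations of same-numbered pools correlated at 0.314, 0.397 and 0.643 between F344 hyperoxia and SD room air, and from -0.073 to 0.108 between the other groups. The 78 lower and 31 higher genes without overlap were 149 and 75 after quantile normalization, 50 and 70 after median centring, 27 and 1 with a gap of at least 0.2, and 191 and 152 without both pools numbered 3; leaving out single pools gave 108 to 153 and 45 to 102. Average effects near 0 changed sign: with single pools left out, Gfap ran from -0.11 to 0.04 (0.02 without exposed F344 pool 2, 0.04 without exposed SD pool 2) and Ptf1a from -0.18 to 0.02. Other causes of these shifts were not tested. The count of listed genes without overlap when a pool is left out was added after seeing the data. The smaller groups hold 2 pools, and probe signal over background was not analysed here.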
